A study of Mus musculus with 12 samples.

Results

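Genes for which tumors with catalytically deficient Vnn1 lay outside both other tumor groups, and not between them, were sought in microarray RNA profiles of 12 Ras-driven sarcomas. The mean of the 4 VdR tumors was contrasted with the midpoint of the R and VR means (weights 1, -0.5 and -0.5) for all 16573 genes tested. This contrast can also pass for a gene in which VdR tumors equal 1 of the other groups. A gene was therefore counted as beyond both groups only where VdR tumors differed from R and from VR tumors in the same direction. Of 16573 genes, 80 met this rule, 52 with VdR tumors above and 28 with VdR tumors below.

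All tumors grew from grafts of the J2A line, myofibroblasts derived from aortic fibroblasts of C57BL/6 mice deficient for p16, p19 and Vnn1, so all 3 groups lack endogenous Vnn1 and the p16 and p19 cell cycle inhibitors. Every group carried H-RasV12 fused to GFP in the pQCXIX retroviral vector, with a mock insert in R (Ras) cells, mouse Vnn1 under the cytomegalovirus promoter in VR (Vnn Ras) cells, and Vnn1 without catalytic activity under the same promoter in VdR (Vd Ras) cells. Per the labels, the cells were placed under the back skin of nude mice, and tumors were taken after 2 to 3 weeks depending on how fast they grew, whereas the study's methods give 1 harvest day, at the end of that span, for the tumors used on arrays. There are 4 tumors a group, all grafts of 1 cell line with no separate transduction per tumor described, so the p-values measure the spread between these grafts. Nude mice lack mature T cells and keep myeloid and natural killer cells, and host cells contribute RNA to a whole tumor. The labels speak of RNA from sorted cell subsets, whereas the study's methods describe RNA of tumors.

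Vnn1 is an ectoenzyme held at the cell surface by a glycolipid anchor. As a pantetheinase it splits pantetheine into cysteamine and pantothenate, which is vitamin B5 and the starting point of coenzyme A synthesis. The deficient form keeps the protein without this activity, so VdR tumors separate the presence of the transcript from that of the enzyme. In VdR tumors a gene may lie near R, near VR, between them or beyond both, and the last position is described here.

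Values are log2 RMA expression of 1 probeset per gene, a scale with no absolute zero for comparing genes. Pairs of tumors within a group correlated across genes at 0.988 to 0.996, where genes are not independent replicates. Vim, the mesenchymal filament vimentin, lay at 13.61 to 13.71 in all tumors. The T cell marker score lay at 5.84 to 6.05, against a filter of 5.38 for low values. It is the mean log2 value of the 8 listed genes on the array, of which 6 passed the filter. The probeset of Cdkn2a, the locus of p16 and p19, read 7.80 to 8.06 in all groups. Whether it lies in the deleted part was not checked. Vnn1 read 11.37 to 11.73 in VdR, 5.53 to 5.83 in R and 10.54 to 11.26 in VR tumors, so R tumors lay apart from both other groups. All 4 VdR tumors were above all VR tumors for Vnn1, by 0.69 on the log2 scale (two-sided exact permutation test, p = 0.0286, the smallest that 4 against 4 allows). This difference by limma (adjusted p = 0.0292) was lost without VdR tumor 4 or 5 or without VR tumor 2, 4 or 5. The probeset does not separate the intact form of the transcript from the deficient one.

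Against the midpoint, 490 genes were called (2.96% of those tested), of which 370 were higher (2.23%) and 120 lower (0.724%) in VdR tumors (limma, adjusted p under 0.05). Most of these calls did not place VdR tumors beyond both groups. Of the 370 higher genes, 52 differed from both groups, 260 differed from R tumors alone, 57 from VR tumors alone and 1 from neither. The 120 lower genes split into 28, 64, 27 and 1. The 80 genes beyond both groups made up 0.483% of those tested, 0.314% above and 0.169% below. Both differences use the same 4 VdR tumors and are not independent of each other. A stricter rule, in which the larger of the p-values of a gene was adjusted over all genes, left Prkcb and Shc3 (adjusted p = 0.0279 each), Nrk (0.0364) and Adgrl2 (0.0364).

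**Figure D1:**
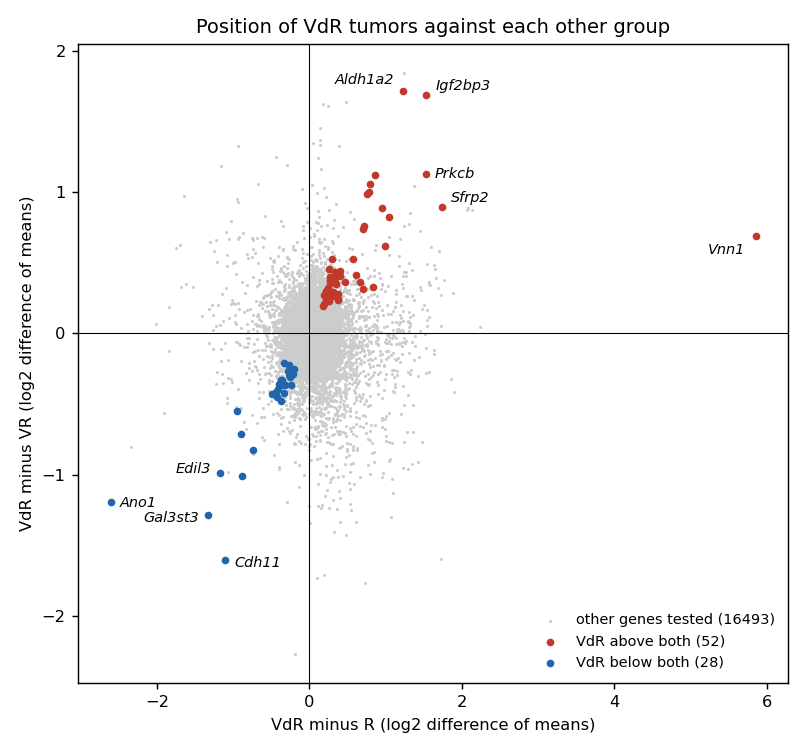
Difference of VdR from R tumors (horizontal axis) and from VR tumors (vertical axis), as log2 differences of group means, for each of 16573 genes. Red points are the 52 genes with VdR tumors above both groups and blue points the 28 below both. Vnn1 lies apart at 5.86 and 0.69. Of the blue points, Ano1, Gal3st3, Cdh11 and Edil3 lie farthest in the lower left.

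In the 80 genes VdR tumors stood apart by little in most cases. The median distance from the midpoint was 1.28-fold for the 52 higher genes and 1.30-fold for the 28 lower ones, and 9 and 3 of them lay under 1.2-fold. At least a 1.5-fold difference from each group was reached by 14 higher and 7 lower genes. All 4 VdR tumors lay outside all 8 others in 50 of the 52 and 26 of the 28 genes, beside 1.21% (above) and 0.76% (below) of all genes tested, or 1.97% in either direction. The rule favours such genes, so these counts describe the members. R and VR tumors differed by limma in 7 of the 52 and 2 of the 28. The share of all genes that differed between R and VR was not counted, so these counts have no background. The VdR tumor farthest from the other groups was tumor 4 in 31 of the 80 genes, tumor 1 in 18, tumor 2 in 17 and tumor 5 in 14. The nearest of the 8 other tumors was an R tumor in 46 genes and a VR tumor in 34. Just inside the rule lay Mansc1 and Cdk13 with a larger adjusted p of 0.0491 and Rnf138 with 0.0483, and just outside it Ap2s1, Fam78a and Jmy with 0.0506 each.

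Prkcb, protein kinase C beta, a kinase activated by diacylglycerol and abundant in leukocytes, was 2.89-fold higher than in R and 2.18-fold higher than in VR tumors. Its log2 values were 10.11, 10.57, 10.62 and 10.18 in VdR, 8.83, 8.68, 9.13 and 8.72 in R and 9.49, 9.04, 9.30 and 9.15 in VR tumors. The lowest VdR tumor was above the highest of the others, VR tumor 1, by 0.62. By limma VdR exceeded R by 1.53 (SE 0.14, adjusted p = 0.000103) and VR by 1.12 (SE 0.14, adjusted p = 0.00437). Markers of macrophages, which express Prkcb, moved in part with it. Over 19 genes their mean log2 value was 9.52 to 9.79 in VdR, 8.53 to 8.85 in R and 9.36 to 9.66 in VR tumors, so R stood apart while VdR and VR overlapped, and the part of macrophages in the Prkcb value was not tested.

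Shc3, an adaptor protein that couples receptor tyrosine kinases to Ras and that is best known from neurons, showed a small but tight difference. R tumors read 5.88, 5.83, 5.85 and 5.89, VdR tumors 6.37, 6.17, 6.25 and 6.27 and VR tumors 5.82, 5.89, 5.90 and 5.82. R and VR tumors covered the same range, and each VdR tumor was above it. The log2 difference was 0.40 from R (adjusted p = 0.00049) and 0.41 from VR tumors (limma, adjusted p = 0.00437). Shc3 was singled out for its p-value after the values were seen.

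Nrk, a kinase related to the Nck-interacting kinases and known from embryo and placenta, lay close to the filter in R and VR tumors. Its values were 6.79, 6.61, 6.09 and 6.33 in VdR tumors, 5.49, 5.50, 5.45 and 5.58 in R tumors and 5.70, 5.48, 5.53 and 5.54 in VR tumors. All VdR tumors were above all others, by 0.95 over the R mean (SE 0.12, adjusted p = 0.000495) and 0.89 over the VR mean (SE 0.12, limma, adjusted p = 0.00662). At such low values a log2 difference on an array may understate the change in transcript.

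Igf2bp3 had the largest distance of the higher genes after Vnn1. It encodes an oncofetal RNA-binding protein that binds IGF2 and other transcripts. Its values were 9.07, 8.91, 8.34 and 8.59 in VdR, 6.69, 7.49, 7.04 and 7.55 in R and 7.96, 6.26, 7.15 and 6.80 in VR tumors. No VdR tumor overlapped the others, and VR tumor 1 was nearest. VdR tumors were 2.89-fold above R (adjusted p = 0.00836) and 3.22-fold above VR tumors (limma, adjusted p = 0.0183), and only without VR tumor 4, of the 12 tumors left out in turn, was the gene no longer beyond both groups. Its paralog Igf2bp1 was higher against the midpoint (0.66, adjusted p = 0.0102) and against R (0.93, adjusted p = 0.000998), and its difference of 0.39 from VR did not pass (limma, adjusted p = 0.117). In the IGF list, these were the only called members of 13 tested (2 higher and 0 lower, beside 2.23% and 0.724% of all genes). Igf1r and Igf2r, the type 1 and type 2 receptors, had -0.24 and 0.10 from the midpoint (adjusted p = 0.172 and 0.599).

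Aldh1a2, retinaldehyde dehydrogenase 2, makes retinoic acid in mesenchyme. R tumors read 7.83, 8.88, 9.67 and 8.67, VdR tumors 9.70, 10.05, 9.98 and 10.25 and VR tumors 7.69, 8.13, 8.70 and 8.60. R tumor 4 came within 0.037 of the lowest VdR tumor, so the groups barely separated. The difference was 1.23 from R (SE 0.32, adjusted p = 0.0312) and 1.72 from VR tumors (SE 0.32, limma, adjusted p = 0.0192). It failed the rule without R tumor 1 or 5, VdR tumor 2, 4 or 5 or VR tumor 2. No other of the 14 tested genes of retinoic acid synthesis and response passed against the midpoint, beside 2.96% of all genes. Dhrs3 and Stra6, a retinaldehyde reductase and a retinol transporter, had 0.39 and 0.42 (adjusted p = 0.274 and 0.54).

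Sfrp2, a secreted frizzled-related modulator of Wnt signalling, differed among all 3 groups. Values were 11.94, 12.38, 11.94 and 11.79 in VdR, 10.40, 10.34, 10.14 and 10.18 in R and 11.04, 11.53, 11.03 and 10.87 in VR tumors. The ranges of the 3 groups did not overlap, with R lowest and VdR highest. VdR tumors were above R by 1.74 (adjusted p = 6.45e-05) and above VR by 0.89 (limma, adjusted p = 0.0126), and VR above R by 0.85 (95% interval 0.54 to 1.16). Of 27 Wnt genes, 2 were called higher against the midpoint and 0 lower, beside 2.23% and 0.724% of all genes. The other was Axin2, a target of Wnt signalling, with 0.33 (adjusted p = 0.00965), which differed from R (0.47, adjusted p = 0.000825) but did not pass against VR (0.19, adjusted p = 0.116).

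Cst6, the secreted protease inhibitor cystatin M, and Prrg4, a membrane protein with a Gla domain, were beyond both groups in every fit with 1 tumor left out. Cst6 read 9.32, 9.51, 9.45 and 9.35 in VdR, 8.64, 8.77, 8.61 and 8.43 in R and 8.67, 8.08, 8.51 and 8.14 in VR tumors. Prrg4 read 9.64, 9.74, 9.69 and 9.39 in VdR, 8.96, 8.76, 8.83 and 9.04 in R and 9.03, 9.11, 8.56 and 8.72 in VR tumors. For both genes all VdR tumors lay above all others. The SD of the VdR tumors was 0.087 for Cst6 and 0.16 for Prrg4, beside 0.14 and 0.13 in R tumors. The differences from R were 0.79 and 0.72 (adjusted p = 0.00166 and 0.00303), and from VR 1.06 and 0.76 (limma, adjusted p = 0.00437 and 0.0122).

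Other higher genes at 1.5-fold or more from each group were Lepr, the leptin receptor (log2 distance from the midpoint 0.99), Nfe2l3, a transcription factor related to Nrf2 (0.93), Klk8, a secreted serine protease (0.89), Cmbl, a hydrolase (0.87), Lgi2, a secreted leucine-rich protein (0.80), and Gm266 (0.72). Nfe2l3 overlapped between groups, since VdR tumor 5 (8.11) lay under VR tumor 4 (8.13), and it met the rule in 3 of the 12 fits with 1 tumor left out, Lgi2 in 4, Lepr, Klk8 and Gm266 in 9 each and Cmbl in 10. VdR tumor 5 was the lowest of its group for Klk8 (6.85 against 7.50, 7.54 and 7.91) and exceeded R tumor 1 by 0.0010.

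**Figure D2:**
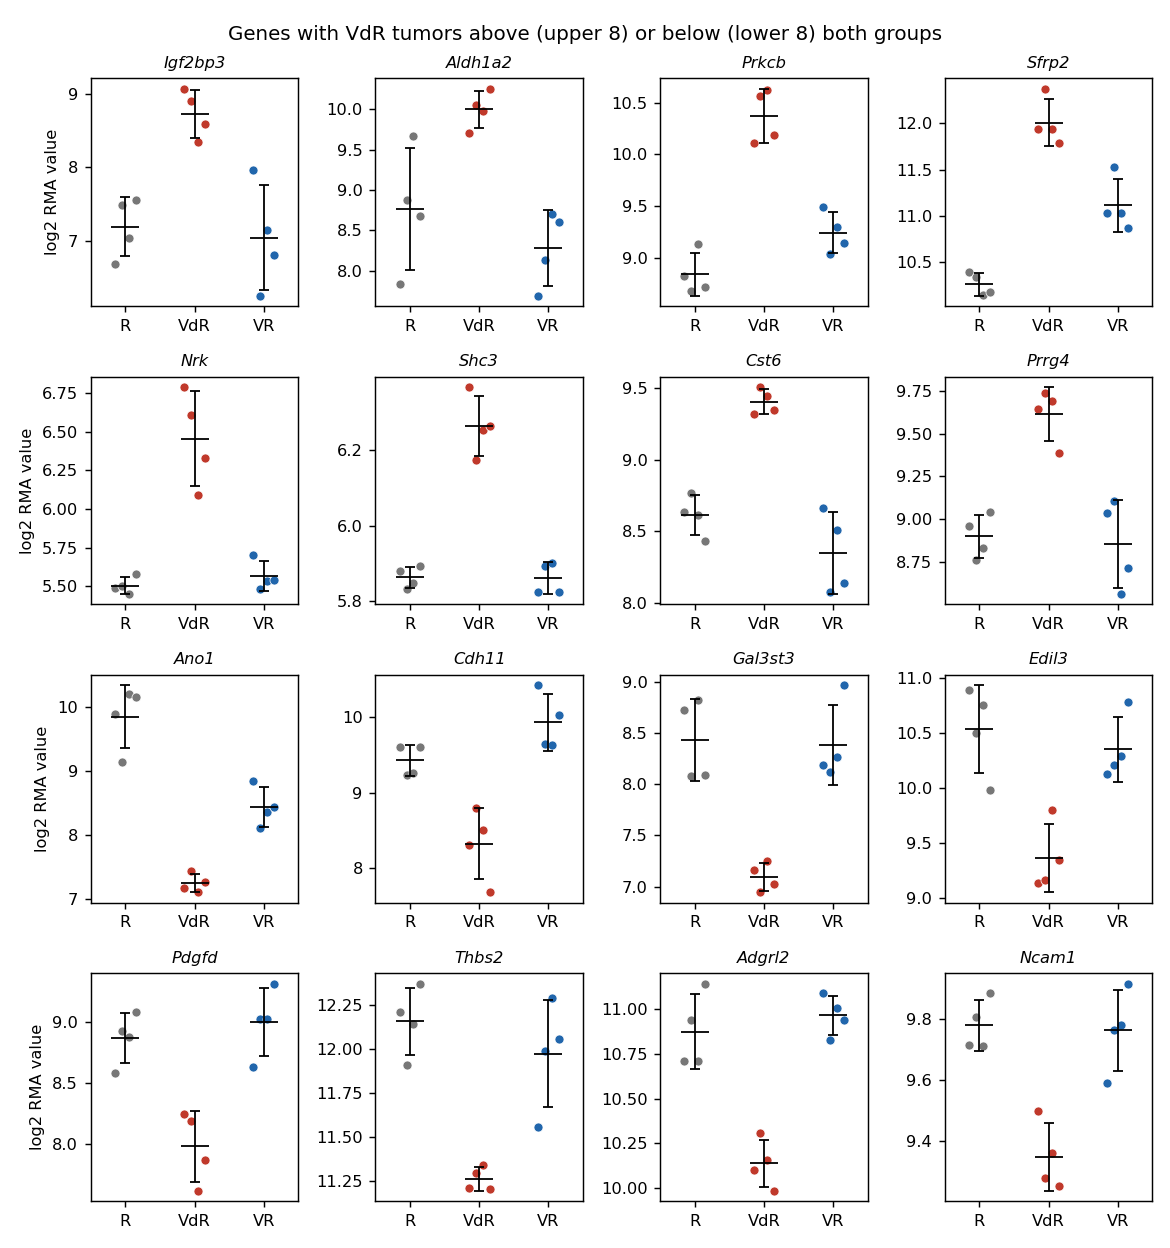
Log2 RMA values of 16 genes beyond both groups in each tumor, with 4 points for each of the R (gray), VdR (red) and VR (blue) groups. Black lines and bars give the mean and SD (n = 4), and each panel has its own vertical axis, which does not start at 0. The VdR points lie above all others in the upper 8 panels and below all others in the lower 8.

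Ano1, a calcium-activated chloride channel, was the gene farthest below the midpoint. Its values were 7.17, 7.43, 7.11 and 7.27 in VdR, 9.89, 9.14, 10.20 and 10.16 in R and 8.85, 8.11, 8.36 and 8.43 in VR tumors. The 3 groups did not overlap, and VdR tumors were 6.09-fold below R (adjusted p = 6.45e-05) and 2.29-fold below VR tumors (limma, adjusted p = 0.017). VR tumors were also below R, with a log2 difference of -1.41 (95% interval -1.87 to -0.95). Without VR tumor 4, Ano1 no longer met the rule. Of 19 ion channel genes tested, 2 were lower and 2 higher against the midpoint, beside 0.724% and 2.23% of all genes. Kcnq5, a potassium channel, was the other lower one with -1.57 (adjusted p = 0.00803). It differed from R, and its -0.80 from VR tumors did not pass (adjusted p = 0.132), with VR tumor 1 at 8.49 and the other VR tumors between 6.71 and 7.33. Cacna1d and Trpv2, a calcium and a cation channel, were higher by 0.41 and 0.31 (adjusted p = 0.00913 and 0.0387).

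Cdh11, a cadherin of mesenchymal cells, was lower in VdR than in either group. R tumors read 9.60, 9.23, 9.26 and 9.60, VdR tumors 8.31, 8.80, 8.50 and 7.68 and VR tumors 10.41, 9.64, 9.63 and 10.03. VdR tumor 5 was the lowest, and the highest VdR tumor was 0.44 below the lowest R tumor. The log2 difference was -1.10 from R (SE 0.23, adjusted p = 0.00889) and -1.61 from VR tumors (SE 0.23, limma, adjusted p = 0.00792). Among 15 tested genes of cadherins and mesenchymal transition, 3 were lower against the midpoint and 0 higher, beside 0.724% and 2.23% of all genes. The others were transcription factors of mesenchyme with small differences, Prrx1 with -0.28 (adjusted p = 0.0328), which was beyond both groups, and Zeb1 with -0.22 (adjusted p = 0.0216), which differed from VR only. Prrx1 failed the rule in 11 of the 12 fits with 1 tumor left out. Cdh2, N-cadherin, and Twist1 had -0.31 and -0.17 and did not pass (adjusted p = 0.106 and 0.147).

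Gal3st3, a sulfotransferase acting on galactose residues of glycans, and Pdgfd, a ligand of the PDGF receptor beta, had R and VR means close to each other. Gal3st3 read 7.16, 6.95, 7.25 and 7.03 in VdR, 8.72, 8.08, 8.82 and 8.08 in R and 8.19, 8.11, 8.26 and 8.96 in VR tumors. All VdR tumors were at least 0.83 below the others, and the difference was -1.33 from R (adjusted p = 0.00172) and -1.28 from VR tumors (limma, adjusted p = 0.0122). VR minus R was -0.05 (95% interval -0.49 to 0.40). Pdgfd read 8.25, 8.19, 7.62 and 7.88 in VdR, 8.59, 8.92, 8.88 and 9.08 in R and 8.63, 9.02, 9.03 and 9.31 in VR tumors. It had -0.88 against R and -1.01 against VR (adjusted p = 0.00514 and 0.0126), and VR minus R was 0.13 (95% interval -0.22 to 0.48). Both genes met the rule in every fit with 1 tumor left out.

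Adgrl2, the adhesion receptor latrophilin 2, was the only lower gene to pass when the larger p-value was adjusted. Its values were 10.10, 10.31, 10.16 and 9.99 in VdR, 10.71, 10.94, 10.71 and 11.14 in R and 11.09, 10.83, 11.01 and 10.94 in VR tumors. All VdR tumors lay at least 0.40 below the others, with -0.74 from the R mean (SE 0.10, adjusted p = 0.000871) and -0.83 from the VR mean (SE 0.10, limma, adjusted p = 0.00437). R and VR means differed by 0.09 (95% interval -0.13 to 0.31).

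Matrix and adhesion genes were also among the lower ones. Thbs2, the antiangiogenic matricellular protein thrombospondin 2, read 11.21, 11.29, 11.34 and 11.20 in VdR, 12.21, 11.91, 12.14 and 12.37 in R and 11.56, 11.99, 12.29 and 12.06 in VR tumors. Edil3, a matrix ligand of integrins, read 9.14, 9.17, 9.80 and 9.35 in VdR, 10.89, 10.50, 10.75 and 9.99 in R and 10.12, 10.21, 10.29 and 10.78 in VR tumors. In both the VdR tumors were below all others, with -0.80 and -1.08 from the midpoint (limma, adjusted p = 0.00642 and 0.00964). Thbs2 failed the rule without VdR tumor 5 or VR tumor 2 or 4, and Edil3 without VdR tumor 1, 2 or 5 or VR tumor 2, 4 or 5. Of 27 other matrix genes tested, 1 was lower and 1 higher, beside 0.724% and 2.23% of all genes. Thbs2 was the lower one. Fbln1, the matrix protein fibulin 1, was higher (0.67, adjusted p = 0.0271) without passing against VR (0.43, adjusted p = 0.177). Of 21 collagen genes, 1 was lower (0.724% of all genes), Col6a3 with -0.26 (adjusted p = 0.0318). In 15 the VdR mean lay between those of R and VR, beside 51.5% of all genes. Ncam1, the neural cell adhesion molecule, and Sema6a, a membrane semaphorin, had -0.42 and -0.46 from the midpoint (adjusted p = 0.00803 and 0.0119), with VdR at 9.25 to 9.50 and 10.21 to 10.38 and every other tumor at 9.59 or more and 10.59 or more.

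Rgs5, a regulator of G protein signalling and a marker of pericytes, was -0.75 from the midpoint (adjusted p = 0.00628). VdR tumors read 10.33, 10.82, 10.44 and 10.53, R tumors 11.33 to 11.68 and VR tumors 10.78 to 11.24, so VdR tumor 2 overlapped VR tumor 1. The other 6 tested pericyte markers did not pass, among them Pdgfrb (-0.08, adjusted p = 0.754) and Kcnj8 (-0.47, adjusted p = 0.488), beside 2.96% of all genes called. Over the 7 pericyte markers the mean log2 value was 8.47 to 8.84 in VdR, 8.57 to 9.03 in R and 8.65 to 9.24 in VR tumors, and fewer pericytes or less Rgs5 RNA per cell cannot be told apart in these bulk samples.

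**Figure D3:**
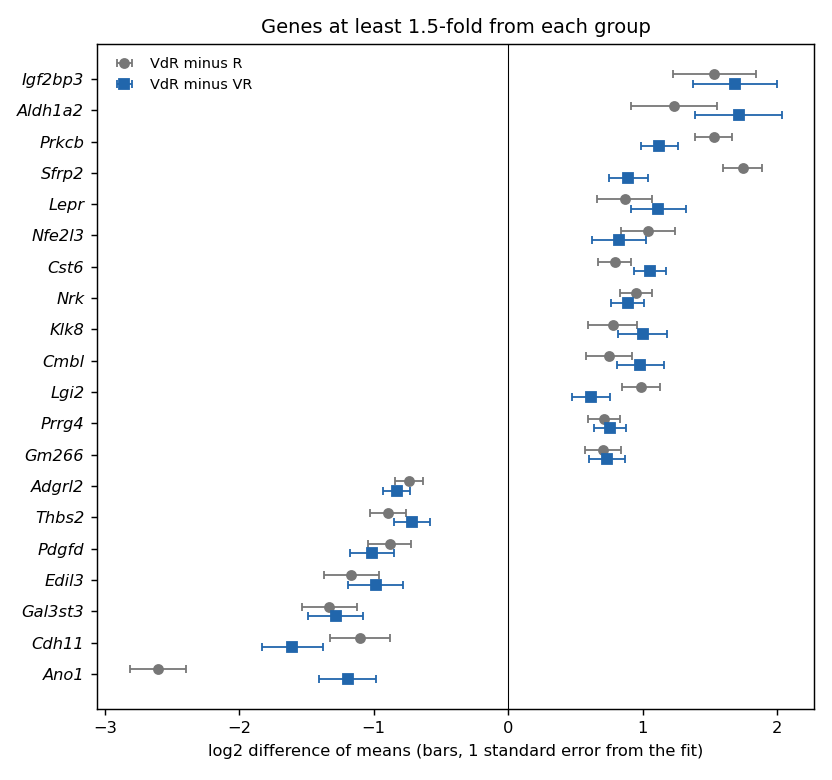
Log2 differences of VdR from R tumors (gray circles) and from VR tumors (blue squares) for the 20 genes other than Vnn1 that were at least 1.5-fold from each group in the same direction. Bars are 1 standard error from the limma fit, and genes are ordered by distance from the midpoint. For Prrg4 the differences from R and VR are 0.72 and 0.76, whereas for Ano1 they are -2.61 and -1.19.

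The 80 genes were sorted by known function after the values were seen, as an account of the members and not as a test, and the share of each class among all genes was not counted. Secreted and cell-surface proteins were the largest class, with 11 higher and 10 lower genes. Metabolic and mitochondrial proteins were 10 genes, each of them among the 52 higher ones. Besides Aldh1a2 and Cmbl they include Phgdh, the first enzyme of serine synthesis (0.51), Ethe1, a mitochondrial persulfide dioxygenase (0.41), Samm50, an outer membrane assembly factor (0.33), Sirt3, a mitochondrial deacetylase (0.28), and Slc25a28, a mitochondrial iron carrier (0.18). Phgdh had values of 9.70 to 10.06 in VdR, 9.12 to 9.51 in R and 9.35 to 9.60 in VR tumors, and the adjusted p against the midpoint was 0.00913. Ethe1 read 9.05 to 9.25 in VdR, 8.80 to 8.95 in R and 8.55 to 8.68 in VR tumors, and it met the rule in every fit with 1 tumor left out. Samm50, Sirt3 and Slc25a28 met it in 2, 3 and 1 of these 12 fits.

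Genes of the secretory pathway and of glycosylation counted 8 higher and 2 lower members. Among the higher ones were Edem2 and Sdf2l1, which act on misfolded proteins in the endoplasmic reticulum, with 0.31 each, and Erp29, a chaperone there, with 0.24. The lower ones were Gal3st3 and Gcnt2, which branches lactosamine chains (-0.38). In the unfolded protein response list Sdf2l1 was the only called gene of 15 tested, beside 2.96% of all genes. The list median was -0.0019 from the midpoint, with the VdR mean above both other means in 4 genes and below both in 4. Transcription, RNA and ribosome factors had 11 higher and 6 lower members. Klf8, a Krüppel-like repressor, read 6.53 to 6.61 in VdR, 5.78 to 5.95 in R and 6.07 to 6.30 in VR tumors, again with 3 separate ranges (0.51 from the midpoint, adjusted p = 0.0014). Lmo4, a LIM-only cofactor, and Atf7, a CREB-family factor, were lower, with -0.44 and -0.35 (adjusted p = 0.00958 and 0.00803). Kinases and other signalling proteins had 5 higher and 3 lower members, and ubiquitin ligases 1 and 3, among them Pdzrn3 (-0.40, adjusted p = 0.00803). Hfe, the partner of the transferrin receptor that is mutated in hemochromatosis, differed among all 3 groups, with 8.48 to 8.78 in VdR, 7.69 to 7.85 in R and 8.21 to 8.35 in VR tumors (0.58 from the midpoint, adjusted p = 0.0014).

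RefSeq promoter sequences (GRCm38.p6, 250 bases before to 50 after the start) were matched by symbol for 63 of the 80 genes, with 83 promoters. Cdh11, Gal3st3, Edil3, Cst6, Shc3, Ncam1 and Vnn1 were among those not matched. The 5 printed here are of genes on which the results turn, Prkcb (chr7:122288875-122289174, plus strand), Igf2bp3 (chr6:49214905-49215204, minus strand) and Aldh1a2 (chr9:71215539-71215838, plus strand) as higher and Ano1 (chr7:144738524-144738823, minus strand) and Adgrl2 (chr3:148954586-148954885, minus strand) as lower genes. Capitals mark matches, on either strand, of the AP-1 motif TGANTCA, the GC box GGGCGG, the CCAAT box CCAAT and the TATA box TATAAA, none of which overlapped in these promoters.
Prkcb: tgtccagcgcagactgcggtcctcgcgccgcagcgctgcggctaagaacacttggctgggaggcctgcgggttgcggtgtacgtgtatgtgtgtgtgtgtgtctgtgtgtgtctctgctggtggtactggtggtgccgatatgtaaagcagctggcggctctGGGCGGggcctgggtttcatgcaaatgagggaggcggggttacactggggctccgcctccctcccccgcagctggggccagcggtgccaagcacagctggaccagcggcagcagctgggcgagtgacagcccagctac
Igf2bp3: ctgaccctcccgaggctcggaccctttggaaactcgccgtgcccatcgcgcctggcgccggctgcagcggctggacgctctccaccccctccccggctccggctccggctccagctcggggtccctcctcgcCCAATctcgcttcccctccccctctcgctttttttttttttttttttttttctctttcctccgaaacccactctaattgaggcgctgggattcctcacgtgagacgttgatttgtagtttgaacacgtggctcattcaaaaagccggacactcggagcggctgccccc
Aldh1a2: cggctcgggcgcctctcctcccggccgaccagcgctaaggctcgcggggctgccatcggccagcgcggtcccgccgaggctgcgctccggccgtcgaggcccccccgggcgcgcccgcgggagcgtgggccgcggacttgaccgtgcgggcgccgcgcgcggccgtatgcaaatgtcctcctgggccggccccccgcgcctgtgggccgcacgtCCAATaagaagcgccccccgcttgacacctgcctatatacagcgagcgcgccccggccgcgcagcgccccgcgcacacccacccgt
Ano1: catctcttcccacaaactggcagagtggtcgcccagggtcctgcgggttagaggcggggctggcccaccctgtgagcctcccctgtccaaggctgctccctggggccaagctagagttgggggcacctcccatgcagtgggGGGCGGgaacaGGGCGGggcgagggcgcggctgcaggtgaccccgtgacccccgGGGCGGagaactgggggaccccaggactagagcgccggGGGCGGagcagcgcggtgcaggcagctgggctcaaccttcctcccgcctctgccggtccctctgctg
Adgrl2: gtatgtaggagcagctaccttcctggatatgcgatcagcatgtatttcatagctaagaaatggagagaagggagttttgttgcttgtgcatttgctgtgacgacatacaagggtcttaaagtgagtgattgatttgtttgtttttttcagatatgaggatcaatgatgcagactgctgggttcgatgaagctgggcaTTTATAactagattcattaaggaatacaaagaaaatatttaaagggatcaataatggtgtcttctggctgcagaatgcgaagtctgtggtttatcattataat
The Ano1 promoter held 4 GC boxes and that of Prkcb 1, those of Igf2bp3 and Aldh1a2 each held 1 CCAAT box, and that of Adgrl2 a TATA box read on the opposite strand. Of 52 promoters of higher genes 57.7% and of the 31 of lower genes 48.4% held a GC box, beside 55.2% of the 16379 promoters of genes tested and 35.7% of all 32851. The AP-1 motif was found in 4 and 1 of them (7.69% and 3.23%), beside 6.01% of promoters of genes tested and 7.81% of all. For the CCAAT box the shares were 40.4% and 22.6% beside 36.9% and 37.4%, and for the TATA box 3.85% and 9.68% beside 8.77% and 13.6%. These matches describe the letters in the windows and were not tested.

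Of the 410 calls against the midpoint that were not beyond both groups by the rule, 324 differed from R tumors alone, 84 from VR tumors alone and 2 from neither. The VdR mean still lay outside both group means in all but 37 of them, and a difference that did not pass does not place VdR tumors level with that group. The 260 genes that were higher and differed from R alone had a median log2 difference of 0.70 from R and 0.17 from VR tumors. Of them, 196 also differed between VR and R, a count without the share over all genes beside it. The largest were Tbx20, a T-box transcription factor, and Cbr2, a carbonyl reductase, at 2.13 and 2.08 from R tumors (adjusted p = 0.00514 and 0.000545). VdR tumors read 9.78 to 10.28 for Tbx20 and lay above all others, yet R tumors spread from 7.01 to 8.94 and the difference of 0.87 from VR did not pass (limma, adjusted p = 0.249). Cbr2 read 11.44 to 11.88 in VdR, 8.85 to 10.45 in R and 10.52 to 11.06 in VR tumors, with 0.89 from VR (adjusted p = 0.0885).

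Macrophage genes were among those that differed from R tumors alone. Of 19 macrophage markers, 10 were higher against the midpoint and 0 lower, beside 2.23% and 0.724% of all genes, and 0 were beyond both. Against R tumors 16 were higher and 0 lower (6.58% and 2.81% of all genes), and against VR tumors 0 were higher and 0 lower (1.67% and 1.77%), with 4 at an unadjusted p under 0.05 by limma and 0 by the methods' t-test. The list median was 0.65 from the midpoint, 0.95 from R and 0.25 from VR, beside 0.0081, 0.0038 and 0.018 over all genes. In 16 of the 19 the VdR mean was nonetheless the highest of the 3, beside 28% of all genes tested. Adgre1, the macrophage antigen F4/80, and Mrc1, the mannose receptor, had means of 9.22, 10.77 and 10.67 and of 9.59, 11.16 and 10.80 in R, VdR and VR tumors. Folr2, the folate receptor of tissue macrophages, had 8.36, 9.96 and 9.35. More macrophages and more RNA per macrophage cannot be told apart here. Complement genes had 5 of 14 higher, prostaglandin and leukotriene genes 4 of 16, macrophage activation genes 4 of 17 and lysosomal genes 2 of 16, with 0 lower and 0 beyond both groups in each.

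**Figure D4:**
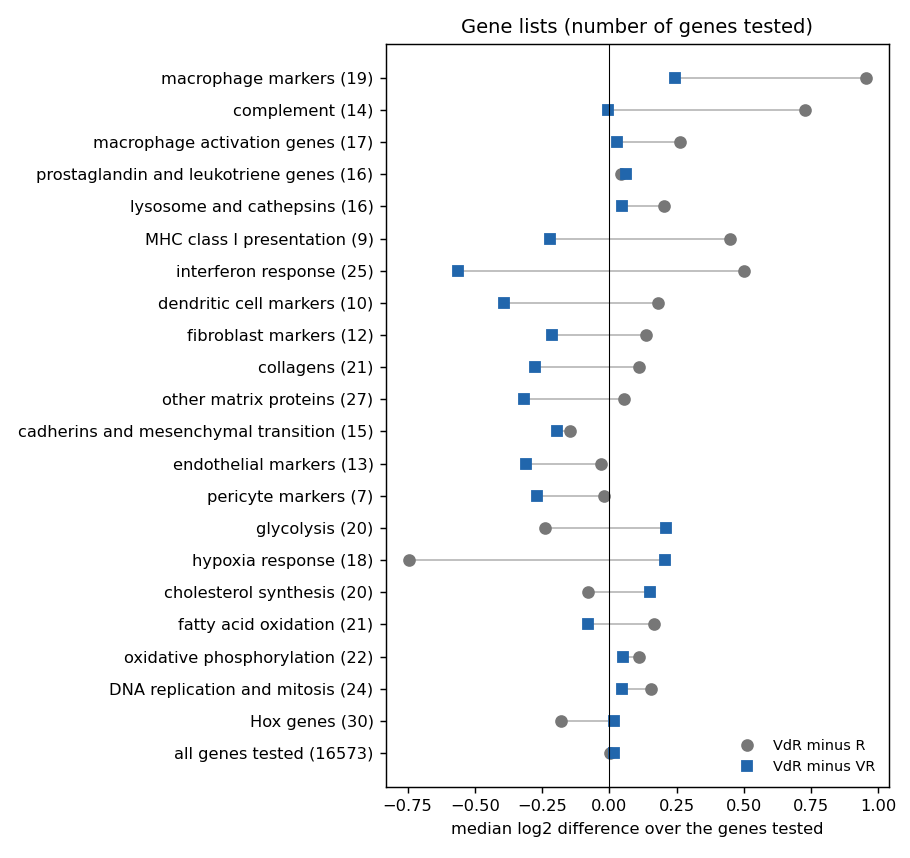
Median log2 difference of VdR from R tumors (gray circles) and from VR tumors (blue squares) over the genes tested in 21 lists and over all 16573 genes, with the number of genes in brackets. Points on opposite sides of 0 mark lists in which VdR tumors lay between the groups by median, as for hypoxia, glycolysis and interferon response. Both medians lay right of 0 for macrophage markers (0.95 and 0.25) and, with smaller values, for macrophage activation, prostaglandin and leukotriene, lysosome, oxidative phosphorylation and DNA replication lists.

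For hypoxia, glycolysis and interferon genes the VdR means mostly lay between those of the other groups, a position that was not tested. Of 18 hypoxia response genes, 15 had VdR means between those of R and VR, with medians of -0.74 from R and 0.21 from VR tumors. The count was 14 of 20 for glycolysis (-0.24 and 0.21) and 24 of 25 for interferon response genes (0.50 and -0.56), beside 51.5% of all genes tested. Against R tumors 0 hypoxia genes were higher and 6 lower by limma, 2 and 3 of glycolysis and 2 and 0 of interferon response (6.58% and 2.81% of all genes). Against VR tumors these counts were 0 and 0, 3 and 0, and 0 and 0 (1.67% and 1.77%). By limma 0 of the hypoxia, glycolysis, cholesterol synthesis (20 tested) and fatty acid oxidation (21 tested) genes were called against the midpoint. Of all genes tested 2.96% were, a share at which lists of this size hold few calls or none. In the same fit 3, 4, 1 and 3 of them had an unadjusted p under 0.05, beside 2722 of all 16573 genes tested. Taking R and VR tumors as 1 group also gave 0 calls. Differences between R and VR enter the spread of that comparison, so it cannot decide the question for these lists. In the list of 14 pantetheinase and coenzyme A synthesis genes Vnn1 was the only one called, beside the same 2.96% of all genes. Pank4, of the pantothenate kinase family, and Vnn3, a paralog of Vnn1, had 0.13 and 0.06 (adjusted p = 0.206 and 0.603).

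Fewer genes lay apart from VR tumors alone. Of 57 such higher genes the largest was Snord118, the small nucleolar RNA U8 needed for ribosomal RNA processing, with 7.63 to 9.56 in VdR, 6.92 to 7.85 in R and 6.46 to 7.41 in VR tumors and a wide spread (1.54 from the midpoint, adjusted p = 0.0232). Rasgrf1, an exchange factor for Ras, read 7.17 to 8.08 in VdR, 6.96 to 7.62 in R and 6.10 to 6.78 in VR tumors. The 27 lower genes of this kind include Thy1, a surface glycoprotein of fibroblasts, which was -0.93 from VR (adjusted p = 0.00792) and -0.13 from R tumors (limma, adjusted p = 0.614), and Mgmt, a DNA repair methyltransferase, with -0.91 (adjusted p = 0.00437) and -0.19 (adjusted p = 0.335). For Rasgrf1, Thy1 and Mgmt, R and VdR tumors overlapped and VR tumors stood apart, whereas for Snord118 the R tumors overlapped both other groups.

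The lower genes that differed from R alone, 64 in number, had a median of -0.40 from R and -0.22 from VR tumors. Adgrg1, an adhesion G protein-coupled receptor, read 8.03 to 8.74 in VdR, 9.71 to 11.12 in R and 8.99 to 9.38 in VR tumors (-1.24 from the midpoint, adjusted p = 0.0206). Hgf, the growth factor of the Met receptor, read 8.34 to 8.67 in VdR, 8.74 to 9.71 in R and 8.96 to 9.57 in VR tumors, so VdR tumors were below all others, and its -0.68 from VR did not pass (limma, adjusted p = 0.0711). Its difference of -0.83 from R did (adjusted p = 0.0164).

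How many genes were beyond both groups turned on single tumors. With 1 tumor left out in turn the number above both ran from 16 without VR tumor 4 to 93 without R tumor 5, and the number below both from 5 without VR tumor 4 to 39 without R tumor 5. All 80 genes kept the direction of both differences in each of the 12 fits. They were chosen for passing both differences in these same tumors, so kept directions largely follow from that choice. Of them, 14 met the rule in all 12 fits, Prkcb, Sfrp2, Cst6, Nrk, Prrg4, Ethe1, Shc3, Rsl24d1, Tor2a and Tsen54 above and Adgrl2, Pdgfd, Gal3st3 and Cdh11 below. The share of higher genes depended on the scaling of the arrays. It was 65% of the genes beyond both groups with the deposited values, 47.3% with cyclic loess and 41.1% with arrays centred on the median, and 75.5%, 59.5% and 51.6% of the genes called against the midpoint.

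**Figure D5:**
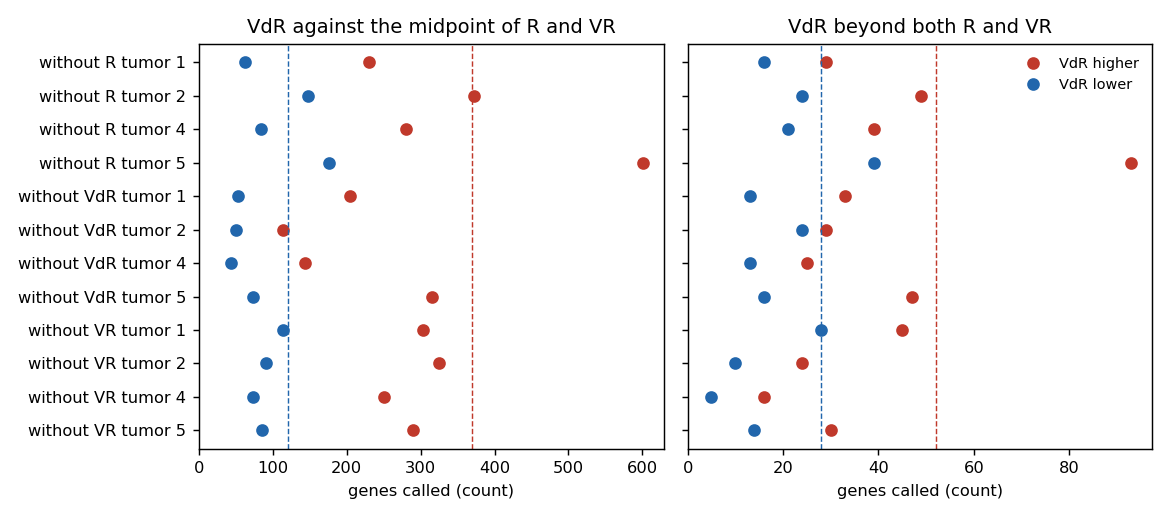
Number of genes called against the midpoint (left) and beyond both groups (right) when 1 tumor is left out, in limma fits over the remaining 11 tumors. Red points count genes higher and blue points genes lower in VdR tumors, and dashed lines mark the counts over all 12 tumors, 370 and 120 on the left and 52 and 28 on the right. Leaving out R tumor 5 raised all 4 counts, and leaving out VR tumor 4 gave the lowest on the right.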

How the data were processed

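Affymetrix mouse gene arrays were run on RNA of 12 tumors, 4 each of R, VdR and VR. The authors hybridised and normalized the arrays, and they deposited log2 values for each probeset, made by RMA in oligo, which the submitters' processing notes name without versions. Background correction, quantile normalization and summarization were thus already in them, and RMA hides overall shifts in RNA content. No batch, slide or scan date was given in the sources used here. The number of arrays limits the precision.

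The arrays hold 35556 probesets. The platform annotation gave 1 symbol to 21789 of them, several to 1621 and none to 12146, and 21698 matched RefSeq by Entrez number with 0 symbols changed. Each of 19938 genes was represented by its probeset of highest mean. A gene entered the test if 4 or more arrays exceeded 5.38 (25th percentile of the table), which kept 16573. A limma 3.58.1 model in R 4.3.3, with a coefficient for each group, was fitted to the 12 arrays by lmFit and eBayes. Benjamini-Hochberg adjustment ran over all genes tested, at 0.05. Groups come from the sample labels. Vnn1 was also compared with two-sided exact permutation tests.

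The contrast, the 60 gene lists and the naming rule were chosen with earlier results of these data known. The rule takes Vnn1, the 20 largest changes per direction among genes called against the midpoint and beyond both groups without overlap of tumors, up to 5 members per list with the lowest adjusted p, and genes the paper names. The text gives part of them, and other genes were named after their values were seen. Lists are described by counts and medians. Alternatives were the filter, the mean of probesets, robust and trended moderation, weights for arrays, cyclic loess, median centring and the replicate number as a block. Others were each tumor left out, a minimum of 1.5-fold, an equal-variance t-test, the larger p-value adjusted and only 2 groups in a fit. For the midpoint, the t-test took the 8 R and VR tumors as 1 group, so differences between R and VR enter its spread. The study's methods name a t-test for qRT-PCR and no test of single genes on the arrays.

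The fit was tested on simulated data for VdR tumors with 16573 genes and independent normal noise. Unchanged genes had the VdR mean at the midpoint, and changed genes were drawn from those with close R and VR means. Genes with VdR level with only 1 of R and VR were thus not simulated, nor were changes under 1.5-fold. The false calls given here are therefore not an error rate for the genes called in the tumors. Of 50 genes changed 1.5-fold it recovered 49 against the midpoint and 46 beyond both groups, and all 50 at each of 2-, 3- and 4-fold, with 13 false calls of 212 against the midpoint and 1 of 197 beyond both.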

Additional observations from a re-analysis of the deposited data

Results flagged for a closer look

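In 3 of 120 groups of 4 tumors, over 40 genes beyond both groups, 1 tumor lay far from the others by Dixon's criterion, which chance meets in about 1 of 20 groups. Lepr read 5.892 in VR tumor 5 and 5.362 to 5.434 in the other VR tumors, all below the lowest VdR tumor. Zfp111, a zinc finger gene, read 7.334 in VR tumor 2 and 7.561 to 7.607 in the others of its group, so this tumor lay farther from VdR tumors. Pdlim2, an adaptor of the actin cytoskeleton, read 9.144 in VR tumor 1 and 8.788 to 8.837 in the others, close under the VdR tumors.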

How the results depend on the processing

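The counts of genes higher and lower against the midpoint (370 and 120) and above and below both groups (52 and 28) stayed within 1.5 times under no filter, a stricter filter, the mean of probesets, and trended or robust moderation. With array weights they were 556, 194, 119 and 58. Cyclic loess gave 221 lower against the midpoint and 58 below both, and median centring 242, 227 and 53 for higher, lower and below both. A minimum of 1.5-fold left 98, 20, 14 and 7. The t-test, which for the midpoint took R and VR tumors as 1 group, left 15, 7, 3 and 2 (1179 and 594 against the midpoint before adjustment). Adjusting the larger p-value left 3 above and 1 below both, and only the compared groups in each fit 17 below both.

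With 1 tumor left out the counts ran from 114 (without VdR tumor 2) to 601 (without R tumor 5) for higher and from 43 (without VdR tumor 4) to 176 (without R tumor 5) for lower genes against the midpoint, and from 16 to 93 and from 5 to 39 above and below both. Higher calls against the midpoint also moved by over 1.5 times without R tumor 1 (230) or VdR tumor 1 (204) or 4 (143), and lower ones without R tumor 1 (63), VdR tumor 1 (53), 2 (50) or 5 (73) or VR tumor 4 (73). Those above both fell to 29 without R tumor 1, 33, 29 and 25 without VdR tumor 1, 2 or 4 and 24 and 30 without VR tumor 2 or 5, and those below both to 16 without R tumor 1, 13, 13 and 16 without VdR tumor 1, 4 or 5 and 10 and 14 without VR tumor 2 or 5. The causes were not tested. Tumor numbers were not taken to pair the tumors in the main fit. Of 12 same-number pairs, 8 had a correlation of deviations over 0.1 (range -0.151 to 0.398), and the pairs of tumor 2 had 0.227 to 0.398. Among the 12 tumors, 3 were closest to their own number. Correlations of different-number pairs were not summarized beside these, and pairing was not tested. With the replicate block the counts were 408, 132, 60 and 29, with 316, 96, 42 and 21 genes shared, and Prrx1 was no longer called against the midpoint. None of the 80 genes turned direction from the midpoint under any alternative run, which largely follows from their choice in these same tumors.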

Other observations

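Small nucleolar RNA genes were gathered after Snord118 had been seen, so their counts are a description. Of 48 tested, 5 were higher and 0 lower against the midpoint, beside 2.23% and 0.724% of all genes. Against VR tumors 8 were higher (1.67% of all genes), against R tumors 0 were (6.58%), and 0 were beyond both groups (0.483%; limma, adjusted p under 0.05). At an unadjusted p under 0.05 the counts were 18 against VR and 6 against R tumors, and the t-test with adjustment called 0 in both. VdR means were above both other means in 35 of 48, beside 28% of all genes tested. Their mean log2 value was 8.56, 8.63, 8.74 and 8.84 in VdR tumors, 8.38, 8.69, 8.55 and 8.56 in R and 8.29 to 8.50 in VR tumors, so VdR and R tumors overlapped and all VR tumors lay below all VdR tumors.

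Among 8016 probesets with no gene symbol, in a fit over 27195 probesets, 22 were higher and 5 lower against the midpoint, and 4 lay above and 0 below both groups (limma, adjusted p under 0.05, with 660 at an unadjusted p under 0.05 against the midpoint). Over all 27195 probesets the counts were 249 higher and 75 lower, 39 above and 19 below both, and 3647 at an unadjusted p under 0.05. Mmp9, the gelatinase gene, was higher against the midpoint (0.57, adjusted p = 0.0405) while neither difference passed (0.53 from R, adjusted p = 0.0507, and 0.60 from VR, adjusted p = 0.0514). Every VdR tumor, at 11.13 or more, was above every other tumor, at 11.12 or less.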
